A study of Mus musculus with 11 samples.

Results

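A set of 10 genes of the insulin-like growth factor (IGF) system were followed in liver sinusoidal endothelial cells (LSEC) on a mouse high fat diet. They are the ligands Igf1 and Igf2, the receptor Igf1r and the 7 binding proteins Igfbp1 to Igfbp7. The 10 were taken by gene symbol, with the brightest transcript cluster of each, out of 19505 named genes and 22206 transcript clusters on Mouse Clariom S arrays, and each symbol had a single cluster. The control group, called wild type, consisted of Atg5 lox/lox mice without Cre (6 arrays), and the knockout group of Atg5 lox/lox;VE-cadherin-Cre mice (5 arrays). In both groups feeding started at 8 weeks of age and lasted 2 weeks, so no array represents another diet. VE-cadherin is made by endothelial cells in general, so Cre is not limited to the liver, and Atg5 is needed to form autophagosomes. The study asked what loss of endothelial autophagy does to LSEC early in high fat feeding. The labels call the arrays biological replicates but do not state whether an array holds 1 mouse or several. Each p-value therefore reflects only the variation among these samples, part of which may be technical.

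IGF1 and IGF2 are small hormones that signal through the tyrosine kinase receptor IGF1R. In blood and tissue most of each is held by binding proteins, which prolong its life, carry it or keep it from the receptor. Hepatocytes make most circulating IGF1 under growth hormone and secrete IGFBP1 when insulin is low. Some other binding proteins come largely from the non-parenchymal cells of the liver, and macrophages are a known local source of IGF1.

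Igfbp1 and Igfbp3, which lie next to each other on chromosome 11 and are read towards each other, showed the 2 widest genotype differences of the 10, in opposite directions. The 250 bases before each start site, taken from RefSeq on GRCm38.p6, are shown for these neighbours because of their values. They are written 5′ to 3′ on the strand of the gene, Igfbp1 from chr11:7197537-7197786 (plus strand) and Igfbp3 from chr11:7213924-7214173 (minus strand). Capitals mark CAAAACA and CAAAATA on either strand (the second reads TATTTTG on the opposite strand).
Igfbp1: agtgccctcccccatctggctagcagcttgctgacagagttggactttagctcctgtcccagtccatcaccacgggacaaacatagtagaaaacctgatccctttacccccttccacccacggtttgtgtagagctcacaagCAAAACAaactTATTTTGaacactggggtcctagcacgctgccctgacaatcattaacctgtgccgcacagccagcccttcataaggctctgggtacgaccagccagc
Igfbp3: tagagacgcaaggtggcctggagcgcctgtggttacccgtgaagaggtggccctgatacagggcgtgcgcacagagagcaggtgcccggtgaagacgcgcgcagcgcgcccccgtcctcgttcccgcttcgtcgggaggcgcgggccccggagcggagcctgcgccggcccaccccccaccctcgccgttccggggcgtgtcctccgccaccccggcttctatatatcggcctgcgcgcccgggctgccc

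The capitals of Igfbp1 lie 108 to 102 and 97 to 91 bases before the start. As background, this stretch is known from IGFBP1 genes as the insulin response element, which FOXO factors bind. Of 32851 mouse upstream windows of this length, 5.56% hold CAAAACA, 3.95% hold CAAAATA and 0.381% hold both. All 10 members matched the RefSeq table, with 14 windows because Igf2 and Igfbp2 have several starts, and only the Igfbp1 window holds either motif. The Igfbp3 window is 73.2% G and C and that of Igfbp1 53.2%. A match in these letters is a description and says nothing of binding in these cells. A link between upstream sequence and genotype difference was not tested.

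Across the arrays, 5 members lay higher and 5 lower in knockout (46% of all clusters lay higher), with a median log2 difference of -0.0067 against -0.02 over all clusters. The study counted a gene as regulated from a fold of 1.5 upward together with an uncorrected p up to 0.05, and 1 of the 10 met this rule (hereafter called), against 1.03% of all clusters (0.671% higher and 0.356% lower). The balance of higher and lower calls over all clusters rested on single arrays and on weighting, from 149 against 79 to 125 against 138 without knockout array 2, 224 against 37 without wild type array 5 and 99 against 146 with array weights. A single gene is too few to set the list apart. In the limma fit 0 members passed a Benjamini-Hochberg adjusted p of 0.05 over all clusters (0% of clusters did), and 1 had an unadjusted p under 0.05 (6.39% of clusters). The ranges of both genotypes overlapped for all 10, and did not overlap for 0.473% of clusters.

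**Figure D1:**
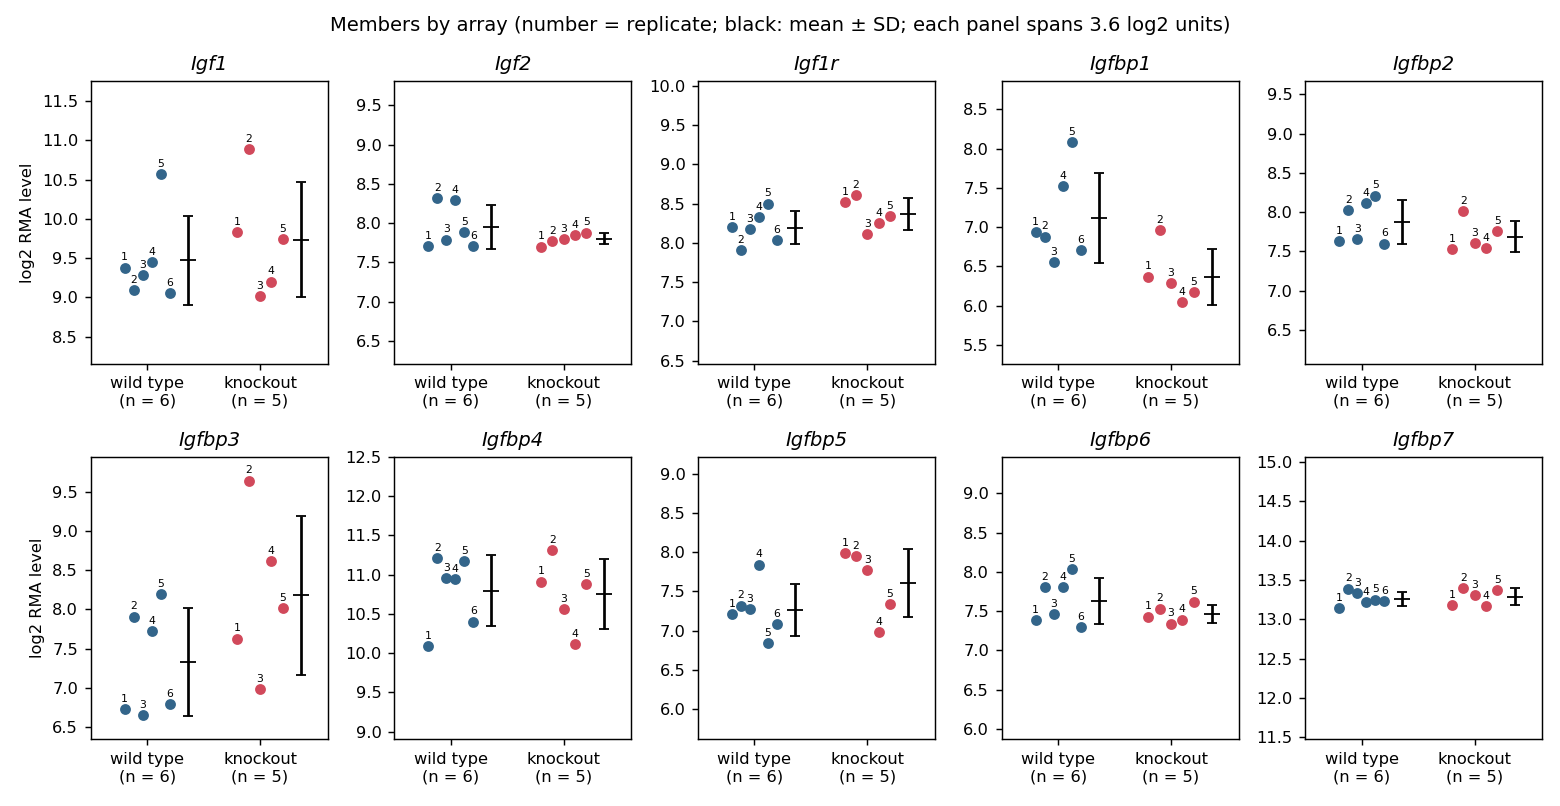
Log2 RMA level (y axis) of each member in the 6 wild type and 5 knockout arrays (points, numbered by replicate), with the mean and SD in black. Of the 5 knockout points of Igfbp1, 4 lie below all wild type points, Igf1 has 1 high array in each genotype (10.57 and 10.89), and Igfbp7 spans only 0.26 over all arrays.

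Atg5 itself read 7.50 ± 0.09 (SD, n = 6) in wild type arrays (7.38 to 7.59) and 7.60 ± 0.17 (SD, n = 5) in knockout arrays (7.48 to 7.90), not lower (difference 0.10, SE 0.10). Where its probes sit relative to the floxed exon is unknown, so this reading does not check the labels, and deletion in these preparations was not measured. The preparations held LSEC transcripts at like levels in both genotypes. The 19 LSEC markers averaged 11.94 ± 0.12 (SD) over the wild type arrays and 11.91 ± 0.11 over those of the knockout (exact permutation p = 0.745), and all 19 stood above the array background in every array. The brightest, Clec4g, had a wild type mean of 13.19, where the highest value of any tested cluster was 13.79. Others were lower, such as Bmp2 at 10.26. Bright markers may have less room to vary. Among the marker lists, the hepatocyte, macrophage and mesothelial means had the smallest exact permutation p. These p were not adjusted for the number of lists. The hepatocyte mean (21 markers, all below 0, 12 called lower) ran from 8.42 to 9.99 in wild type and from 7.54 to 9.17 in knockout (exact permutation p = 0.0498). The macrophage mean (15 markers, all above 0, 14 called higher) ran from 6.90 to 8.30 in wild type and from 7.53 to 10.14 in knockout (exact permutation p = 0.0217). The value of 10.14 was that of knockout array 2. Over all clusters 0.671% were called higher and 0.356% lower. The stellate and fibroblast mean (14 markers, 13 above 0, 0 called) ran from 7.56 to 8.76 in wild type and from 7.87 to 9.02 in knockout (exact permutation p = 0.193). Mesothelial markers (7, all below 0, 0 called) read low, and 5 of them were above the background mean in every array. Their mean ran from 5.79 to 6.37 in wild type and from 5.80 to 5.97 in knockout (exact permutation p = 0.0411). The knockout values thus lay within the wild type range. The means of large vessel endothelium, cholangiocyte and lymphocyte markers had exact permutation p of 0.842, 0.234 and 0.513. In such bulk samples, fewer cells of a type and less RNA per cell cannot be told apart. All 10 members read above the mean of the 23 antigenomic background probe sets in every array. These sets span 2.31 to 8.78 with their base composition, and the composition of the members' probes is not known here. Igf1, Igfbp4 and Igfbp7 were also above the highest set in all 11 arrays, Igf1r in 5, Igfbp3 in 2 and the other 5 members in 0, so differences of these dimmer members may be compressed.

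Of the ligands, Igf1 had 1 high array in each genotype and no genotype difference beyond its spread. In wild type its log2 level had a lowest value of 9.05, a median of 9.33 and a highest value of 10.57, and the knockout arrays read 9.83, 10.89, 9.02, 9.20 and 9.74. Wild type array 5 and knockout array 2 stood above all others, and the remaining arrays of both genotypes lay between 9.02 and 9.83. The difference of 0.27 (SE 0.33, 95% interval -0.45 to 0.98) was within the spread between arrays (exact permutation p = 0.491, two-sided over 462 splits). It was -0.0225 without knockout array 2 and 0.49 without wild type array 5. The same 2 arrays had the highest macrophage mean of their genotype, 8.30 and 10.14. They also had the highest hepatocyte mean (9.99 and 9.17) and the highest stellate and fibroblast mean (8.76 and 9.02) of their genotype. With genotype means subtracted, Igf1 rose and fell with the macrophage mean across the 11 arrays (Pearson's r = 0.940, permutation p = 0.00011, adjusted p = 0.0024; Spearman rho = 0.855, adjusted p = 0.0186), and r was 0.790 without these 2 arrays. Its relation to the stellate and fibroblast mean was looser (r = 0.693, permutation p = 0.0154, adjusted p = 0.0488; rho = 0.473, adjusted p = 0.242), with r = 0.701 without wild type array 1 and knockout array 3. Its relation to the hepatocyte mean (r = 0.864, permutation p = 0.00329, adjusted p = 0.0165; rho = 0.673, adjusted p = 0.0801) rested on wild type array 5 and knockout array 2, with r = 0.351 without them. With the macrophage mean as a covariate the genotype difference was -0.68 (SE 0.18, limma adjusted p = 0.174), and with the hepatocyte mean as a covariate it was 1.03 (SE 0.23, adjusted p = 0.119), so its sign depended on the term that was added. Of 13640 named genes above the background mean in every array, those closest to Igf1 in this way were the myeloid lectin Clec12a (r = 0.973), the protease Ctsc, cathepsin C (0.963), and Ly86 (0.959). Ly86 encodes the partner of a Toll-like receptor homologue. For every member, picking the highest of 13640 genes over 11 arrays raises such r values, and no p was computed for them.

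Igf2, a growth factor of fetal life that adult mouse liver makes little of, showed no genotype difference beyond its spread. Wild type arrays had a lowest value of 7.71, a median of 7.84 and a highest value of 8.32, and the knockout arrays read 7.70, 7.77, 7.80, 7.85 and 7.88. All 5 knockout arrays lay below the wild type mean of 7.95 while wild type arrays 2 and 4 read 8.32 and 8.29. The difference was -0.15 (SE 0.13, 95% interval -0.44 to 0.14, exact permutation p = 0.348). Wild type array 2 had the highest background mean of all arrays (5.17) and array 4 the next (5.05), and Igf2 followed that mean over the 11 arrays (r = 0.730, permutation p = 0.0112, adjusted p = 0.0375; rho = 0.706, adjusted p = 0.0651). Leaving out wild type arrays 1 and 6, which were the farthest in background, gave r = 0.545, and the part of background in the Igf2 values was not tested. Closest to Igf2 in its pattern were Foxd3 (r = 0.967), Usp17lc (0.966) and Rnase2a (0.962), and whether they share background variation with it was not tested.

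The receptor gene Igf1r varied with its ligand gene. Its wild type values had a minimum of 7.91, a median of 8.19 and a highest value of 8.50, and the knockout arrays read 8.52, 8.61, 8.11, 8.25 and 8.34. Knockout arrays 1 and 2 exceeded the wild type range slightly. The difference was 0.18 (SE 0.13, 95% interval -0.11 to 0.46) with an exact permutation p = 0.193, higher than the wild type mean in 4 of 5. Among the 45 pairs of members, Igf1 and Igf1r had one of the closest relations (r = 0.885, permutation p = 1e-04, adjusted p = 0.0045; rho = 0.873, adjusted p = 0.0257), and without wild type array 5 and knockout array 2 r was 0.859. Igf1r also followed the hepatocyte mean (r = 0.798, permutation p = 0.00303, adjusted p = 0.0165; rho = 0.755, adjusted p = 0.0472) and the macrophage mean (r = 0.767, permutation p = 0.00446, adjusted p = 0.0178; rho = 0.636, adjusted p = 0.104). Without these 2 arrays r was 0.542 and 0.530. With the macrophage mean as a covariate its difference was -0.07 (SE 0.14), and with the hepatocyte mean 0.40 (SE 0.13, limma adjusted p = 0.392). Closest in pattern to Igf1r were the cytokine gene Il1b (r = 0.967), Mpeg1, which encodes a pore-forming protein of phagocytes (0.963), and the leukocyte actin-bundling gene Lcp1 (0.961).

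Igfbp1, the insulin-regulated binding protein of hepatocytes, was the 1 member called, and it was lower in knockout. Wild type arrays had a lowest value of 6.55, a median of 6.91 and a highest value of 8.08, and the knockout arrays read 6.37, 6.96, 6.29, 6.04 and 6.17. All 5 knockout arrays lay below the wild type mean, and 4 of them below the lowest wild type array, while knockout array 2 lay within the wild type range. The knockout mean of 6.37 ± 0.35 (SD, n = 5) was 1.68-fold lower than the wild type mean of 7.11 ± 0.58 (SD, n = 6) (log2 difference -0.75, SE 0.26, 95% interval -1.30 to -0.19). The exact permutation p was 0.0281, and limma gave an unadjusted p of 0.0124 and an adjusted p of 0.765 over all clusters. Over 24 alternatives that adjusted p ran from 0.0468 to 0.987, the lowest with the macrophage mean as a covariate. Without wild type array 5 the difference was -0.55 and no longer met the fold of 1.5.

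The Igfbp1 level followed hepatocyte transcripts closely. Wild type array 5 had the highest and knockout array 4 the lowest hepatocyte mean (9.99 and 7.54), and the same arrays had the highest and lowest Igfbp1. With genotype means subtracted, r was 0.916 over 11 arrays (permutation p = 0.00015, adjusted p = 0.0024; rho = 0.855, adjusted p = 0.0186) and 0.757 without wild type array 5 and knockout array 2. Igfbp1 also followed the macrophage mean (r = 0.774, permutation p = 0.00671, adjusted p = 0.0252; rho = 0.591, adjusted p = 0.142), with r = 0.386 without these 2 arrays. With the hepatocyte mean as a covariate the genotype difference of Igfbp1 was -0.12 (SE 0.17) and was not called. With the macrophage mean as a covariate it was -1.34 (SE 0.23). The 2 means themselves differed between the genotypes (hepatocyte -0.85 and macrophage 1.22, exact permutation p = 0.0498 and 0.0217). In these fits, for every member, genotype and the added mean therefore cannot be told apart. By r with genotype means subtracted, Igfbp1 was most like the taurine synthesis gene Csad (r = 0.971), the glutamine transporter gene Slc38a3 (0.963) and Apoh (0.955). Apoh encodes a plasma glycoprotein.

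Igfbp3, the main carrier of IGF in blood, had the largest difference in size but also the largest spread. Its level in wild type had a lowest value of 6.65, a median of 7.25 and a highest value of 8.20, and the knockout arrays read 7.63, 9.64, 6.99, 8.62 and 8.02. Knockout arrays 2 and 4 lay above every wild type array, and knockout array 3 lay among the low wild type arrays. The means were 7.33 ± 0.69 (SD, n = 6) and 8.18 ± 1.01 (SD, n = 5), a difference of 0.85 (SE 0.43, 95% interval -0.08 to 1.77). It did not meet the rule (limma unadjusted p = 0.0706, exact permutation p = 0.139). It met the rule without wild type array 5 (1.02) or knockout array 3 (1.14) and was 0.48 without knockout array 2. Igfbp3 followed the stellate and fibroblast mean (r = 0.831, permutation p = 0.00157, adjusted p = 0.0133; rho = 0.836, adjusted p = 0.0187), with r = 0.755 without wild type array 1 and knockout array 3. It followed the macrophage mean to a like degree (r = 0.827, permutation p = 0.00087, adjusted p = 0.0104; rho = 0.718, adjusted p = 0.0651), with r = 0.560 without wild type array 5 and knockout array 2. With the macrophage mean as a covariate the difference was -0.25 (SE 0.33), and with the hepatocyte mean 1.47 (SE 0.47, adjusted p = 0.379). Its neighbour Igfbp1 had a relation to it that did not pass adjustment (r = 0.646, permutation p = 0.0321, adjusted p = 0.103; rho = 0.418, adjusted p = 0.418), and r was 0.227 without wild type array 5 and knockout array 2. Igfbp3 was most like Hgfac (r = 0.977), the gene of a protease that activates hepatocyte growth factor, Pamr1 (0.960) and Slc35c1 (0.960).

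**Figure D2:**
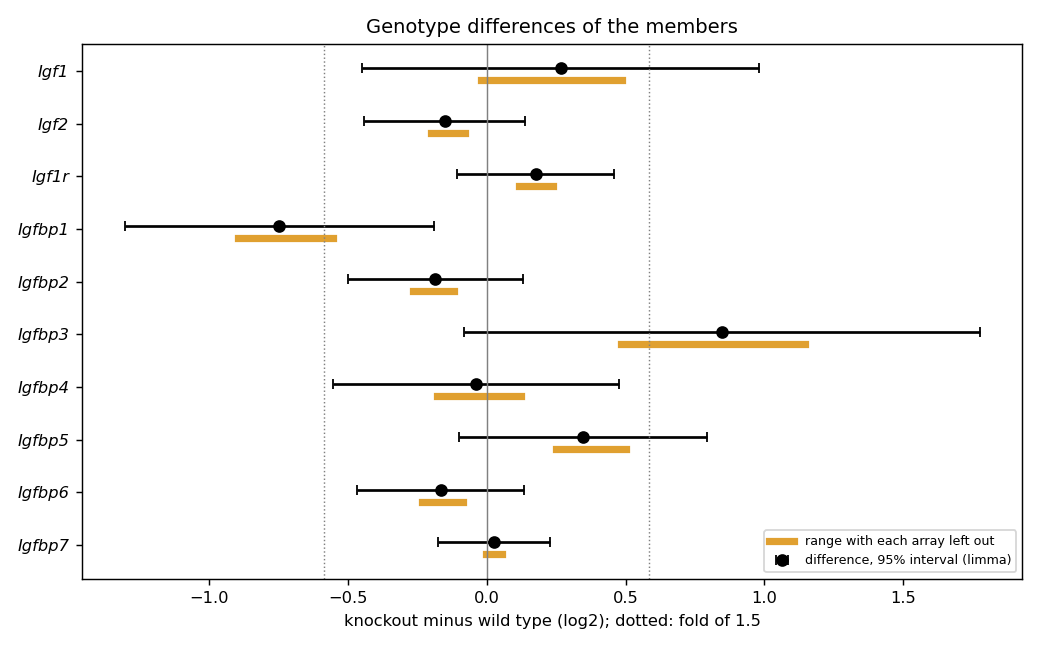
Knockout minus wild type difference of each member on the log2 scale (x axis) with the 95% interval of the limma fit (black, n = 6 and 5) and the range of the difference when each array was left out in turn (orange). The interval of Igfbp1 lies below 0, that of Igfbp3 reaches from -0.08 to 1.77, and the dotted lines mark a fold of 1.5.

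**Figure D3:**
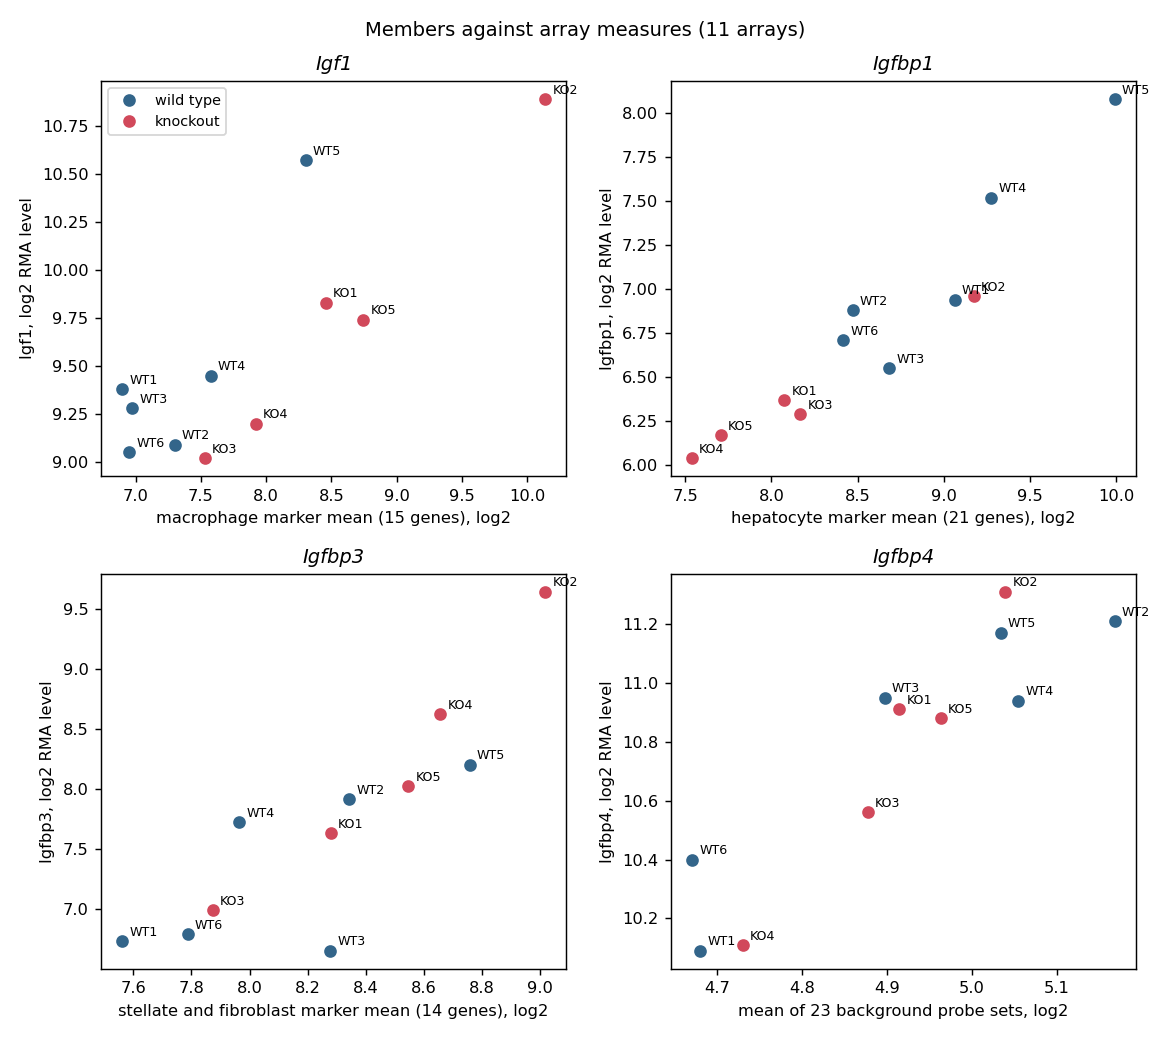
Log2 level of 4 members (y axes) against a measure of each array (x axes), namely the mean of macrophage, hepatocyte, or stellate and fibroblast markers or of the background probe sets, for 6 wild type (blue) and 5 knockout (red) arrays. Igf1 is highest in the arrays WT5 and KO2, Igfbp1 rises along the hepatocyte mean in both genotypes, and Igfbp4 rises along the background mean.

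Igfbp2 and Igfbp6 moved together and showed no genotype difference beyond their spread. Igfbp2 is secreted by hepatocytes, and Igfbp6 binds IGF2 in preference to IGF1. Igfbp2 had a lowest value of 7.60, a median of 7.84 and a highest value of 8.21 in wild type, and read 7.53, 8.01, 7.61, 7.54 and 7.76 in knockout (difference -0.19, SE 0.15, 95% interval -0.50 to 0.13, exact permutation p = 0.251). Igfbp6 had a lowest value of 7.30, a median of 7.63 and a highest value of 8.03 in wild type, and read 7.43, 7.53, 7.34, 7.39 and 7.62 in knockout (difference -0.17, SE 0.14, 95% interval -0.47 to 0.13, exact permutation p = 0.255). For both genes wild type array 5 was the highest and wild type array 6 the lowest of its genotype. The relation between both genes was r = 0.893 (permutation p = 0.00025, adjusted p = 0.00563; rho = 0.907, adjusted p = 0.0126), and r was 0.930 without wild type array 5 and knockout array 2.

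Both also followed the background mean of the arrays, with r = 0.834 for Igfbp2 (permutation p = 0.00177, adjusted p = 0.0133; rho = 0.836, adjusted p = 0.0187) and r = 0.824 for Igfbp6 (permutation p = 0.00203, adjusted p = 0.0135; rho = 0.888, adjusted p = 0.0186). Without wild type arrays 1 and 6, the farthest in background, r was 0.756 and 0.668. Both ran inversely to the intron control mean, with r = -0.814 for Igfbp2 (permutation p = 0.00418, adjusted p = 0.0178; rho = -0.864, adjusted p = 0.0186) and r = -0.813 for Igfbp6 (permutation p = 0.00241, adjusted p = 0.0145; rho = -0.806, adjusted p = 0.0243), and without the same arrays r was -0.726 and -0.641. Neither gene read above the highest background set in any array, and the part of background in their common variation was not tested. Igfbp2 also followed the macrophage mean (r = 0.804, permutation p = 0.00104, adjusted p = 0.0104; rho = 0.745, adjusted p = 0.0472), with r = 0.606 without wild type array 5 and knockout array 2. With the hepatocyte mean as a covariate the Igfbp2 difference was 0.05 (SE 0.16), and with the macrophage mean -0.49 (SE 0.15, limma adjusted p = 0.184). The genes closest to Igfbp2 were C1ql4 (r = 0.98), Tuba3a (0.97) and P3h3 (0.96), and those closest to Igfbp6 were the transcription factor gene Hlf (0.969), Agmat (0.962) and the muscle regulator Myog (0.960).

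Igfbp4, which holds IGFs away from their receptor until a protease cleaves it, was well above background and did not separate the genotypes. Wild type arrays had a lowest value of 10.09, a median of 10.95 and a highest value of 11.21, and the knockout arrays read 10.91, 11.31, 10.56, 10.11 and 10.88. The lowest array of each genotype read almost the same, wild type 1 and knockout 4. The difference was -0.04 (SE 0.24, 95% interval -0.55 to 0.47, exact permutation p = 0.903). Its values followed technical measures of the arrays, with r = 0.909 for the background mean (permutation p = 0.00014, adjusted p = 0.0024; rho = 0.809, adjusted p = 0.0243) and r = -0.928 for the mean of 5222 intron control rows (permutation p = 0.00016, adjusted p = 0.0024; rho = -0.864, adjusted p = 0.0186). Without wild type arrays 1 and 6, r was 0.867 and -0.910. Igfbp4 followed the macrophage mean too (r = 0.726, permutation p = 0.011, adjusted p = 0.0375; rho = 0.764, adjusted p = 0.0472), with r = 0.603 without wild type array 5 and knockout array 2. It was the 1 member whose relation to the LSEC marker mean passed adjustment (r = 0.787, permutation p = 0.00404, adjusted p = 0.0178; rho = 0.827, adjusted p = 0.0187), with r = 0.829 without wild type arrays 1 and 3. Nearest to Igfbp4 in pattern were the transcription factor gene Nfix (r = 0.992), Sh3glb2 (0.987) and Cox8a (0.987), a subunit gene of cytochrome oxidase.

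Igfbp7, a low-affinity member of the family made by endothelium, was bright and nearly constant. The wild type values had a minimum of 13.14, a median of 13.24 and a highest value of 13.39, and the knockout arrays read 13.18, 13.40, 13.31, 13.17 and 13.37. The difference was 0.03 (SE 0.09, 95% interval -0.18 to 0.23, exact permutation p = 0.660), and the fold of 1.5 lies outside this interval. The highest value of any tested cluster on these arrays was 13.79. A bright cluster may have less room to vary, but the upper limit of the scale was not measured. The genes closest to it were Ltc4s (r = 0.949), H4c8 (0.926) and the water channel gene Aqp1 (0.913).

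Igfbp5, which binds to extracellular matrix and is common in mesenchymal cells, differed little in relation to the spread. In wild type it had a lowest value of 6.84, a median of 7.24 and a highest value of 7.84, and the knockout arrays read 7.99, 7.95, 7.77, 6.98 and 7.34. Knockout arrays 1 and 2 lay above the wild type range, and knockout array 4 near its lower end. The difference was 0.35 (SE 0.21, 95% interval -0.10 to 0.79, exact permutation p = 0.167). None of the relations of Igfbp5 to the 6 array measures passed adjustment (r from -0.352 with the intron control mean to 0.469 with the LSEC mean, adjusted p from 0.219 to 0.624), nor did any of those of Igfbp7. For Igfbp5 with the hepatocyte mean, r was 0.302 over 11 arrays and 0.783 without wild type array 5 and knockout array 2. With the LSEC mean it was 0.682 without wild type arrays 1 and 3, and no p was computed for these reduced sets. Igfbp2, next to Igfbp5 on chromosome 1, showed no relation to it that passed adjustment (r = 0.216, permutation p = 0.519, adjusted p = 0.689; rho = 0.155, adjusted p = 0.738), with r = 0.410 without wild type array 5 and knockout array 2. In pattern Igfbp5 was nearest to Ica1 (r = 0.906), Nacc2 (0.895) and the stress-induced transcription factor gene Atf3 (0.891).

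**Figure D4:**
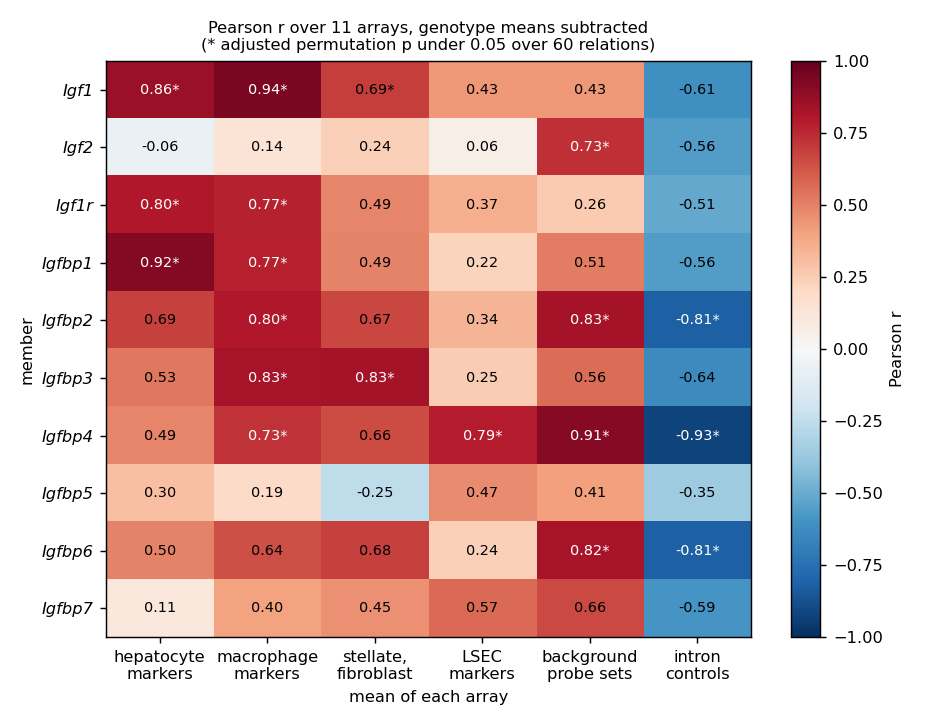
Pearson r over 11 arrays between each member (rows) and the mean of marker lists or control rows (columns), after subtraction of genotype means, from -1 (blue) to 1 (red). Igf1 is closest to macrophage markers (0.94), Igfbp1 to hepatocyte markers (0.92) and Igfbp4 to background (0.91) and, inversely, intron controls (-0.93).

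Of the 60 relations between members and array measures, 19 passed an adjusted permutation p of 0.05 by Pearson's r and 13 of these also by Spearman's rho. Of the 45 member pairs, 6 passed by r and 2 by rho, which were Igf1 with Igf1r and Igfbp2 with Igfbp6. The other 4 were Igfbp1 with Igf1, Igf1r and Igfbp2, and Igfbp2 with Igfbp3, with r from 0.772 to 0.828 and, without wild type array 5 and knockout array 2, from 0.345 to 0.644. The array measures are themselves related. The hepatocyte and macrophage means had r = 0.758 (permutation p = 0.00851; rho = 0.555, permutation p = 0.083), which was 0.0641 without wild type array 5 and knockout array 2. The macrophage mean also varied with the stellate and fibroblast mean (r = 0.757, permutation p = 0.00582; rho = 0.673, permutation p = 0.0279; r = 0.455 without these arrays) and, inversely, with the intron control mean (r = -0.726, permutation p = 0.00896; rho = -0.873, permutation p = 0.00076; r = -0.692 without them). The intron control mean ran inversely to the background mean (r = -0.924, permutation p = 5e-05; rho = -0.882, permutation p = 0.0006), with r = -0.831 without wild type arrays 1 and 6. It also ran inversely to the stellate and fibroblast mean (r = -0.737, permutation p = 0.0122; rho = -0.800, permutation p = 0.00467; r = -0.585 without wild type array 1 and knockout array 3). For the LSEC mean the relation was r = -0.707 (permutation p = 0.0152; rho = -0.673, permutation p = 0.0271), with r = -0.677 without wild type arrays 1 and 3. These p-values are not adjusted for the 15 pairs of measures. The relations of a member to several measures are therefore not separate results.

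**Figure D5:**
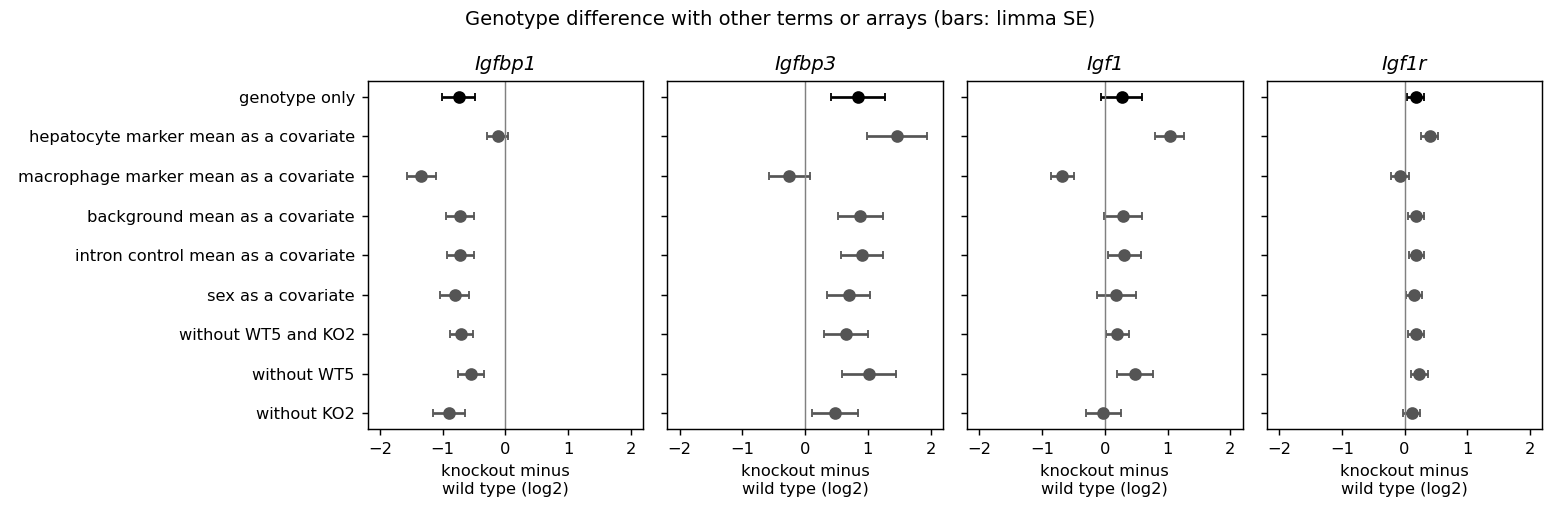
Knockout minus wild type difference of 4 members (x axes, log2, bars are the limma SE) with genotype alone, with another measure of each array as a covariate, or without the arrays WT5 and KO2. Igfbp1 is at -0.12 with the hepatocyte mean added, and Igf1 is at 1.03 with the hepatocyte and at -0.68 with the macrophage mean added.

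Other genes of the pathway were read from lists. None of the 12 measured receptors and genes of the growth hormone axis was called (5 above 0, 7 below, median -0.0015). The growth hormone receptor gene Ghr differed by 0.14 (SE 0.19), the insulin receptor gene Insr by 0.02 (SE 0.22) and Igfals, the acid-labile subunit that joins IGFBP3 in blood, by -0.06 (SE 0.19). The smallest p were those of Gh (-0.34, SE 0.12) and of Igf2r (0.44, SE 0.20), the scavenger receptor of IGF2, with limma adjusted p = 0.765 for each. Gh, Igf2r and Igfals read above the background mean in all 11 arrays but above the highest background set in 0. Whether their values hold signal beyond background was not tested. Of 11 measured binding protein proteases and inhibitors 0 were called (3 above 0, 8 below, median -0.11), and 4 of them were not above background in every array. These include the IGFBP4 protease gene Pappa (-0.07, SE 0.12), Adam28 (-0.38, SE 0.16) and Stc2 (-0.21, SE 0.10), the latter pair having the smallest p of the list, so no difference in expression can be read from them.

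Of 16 adaptors and signalling genes 14 lay above 0 (46% of all clusters did) with a median of 0.14, and 0 were called. The phosphatase gene Ptpn11 (0.20, SE 0.09) had ranges that did not overlap between genotypes, as was so for 0.473% of all clusters. The ranges of Grb14 (-0.47, SE 0.16) did not overlap either, but it read below the background mean in all 11 arrays. Both had a limma adjusted p of 0.765. Among 14 related binding proteins, RNA-binding proteins of IGF2 and matrix partners (6 above 0, 8 below, median -0.06) 1 was called, the matrix and plasma protein gene Vtn, which is made by hepatocytes. It was 1.70-fold lower (log2 difference -0.76, SE 0.32, exact permutation p = 0.0714). Any 1 of 5 arrays left out ended this call, namely wild type 4 (-0.69) and 5 (-0.59) and knockout 3 (-0.70), 4 (-0.60) and 5 (-0.70), as did the hepatocyte mean as a covariate (0.02). Ccn5, a matricellular growth regulator, differed by -0.30 (SE 0.12).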

How the data were processed

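RNA from 11 arrays was compared. The authors summarised them with RMA in Affymetrix Expression Console, per the submitters' processing notes, which name no version. This method corrects background, gives all arrays one distribution and combines the probes of each transcript cluster, which compresses weak signals. Their range of 2.15 to 13.79 shows that the authors deposited log2 values. How cells were isolated, scan dates and the genome build are not given in the sources used here.

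Of the deposited rows, 6640 controls were left out and 22206 clusters tested. The platform annotation names 19572 clusters by 1 gene symbol, 0 by several and 2634 by none, and 55 symbols have more than 1 cluster. The genotype comparison used limma 3.58.1 (R 4.3.3) on all clusters, with lmFit, eBayes and genotype as the one term, and, for single genes, a two-sided exact permutation test over 462 splits (p can be no lower than 0.0022). The study names thresholds and no test. Values are mean ± SD, and each difference is the knockout mean less the wild type mean, in log2 units, with limma's SE. Fold changes are on the RMA scale. The number of arrays limits the precision.

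Relations were computed over 11 arrays after subtracting genotype means, with 100000 permutations and Benjamini-Hochberg adjustment over 60 relations (20 of them, with background sets and intron controls, added after seeing the data) or over 45 member pairs. Each r was repeated without the 2 arrays farthest from the median of the first measure. Array medians ran from 6.61 to 6.75. The deviations of same-numbered arrays of both genotypes had correlations of 0.006, 0.389, 0.079, -0.321 and 0.025 over clusters, so replicate numbers were treated as names. Y-linked transcripts were high in 2 wild type and 1 knockout arrays.

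The members and lists were chosen with earlier results of these data known. Named genes were the members, 2 pathway genes of smallest p per list with any that were called, and the 3 genes closest to each member by r. Ghr, Insr, Igfals and Pappa were named in addition for their roles, after their values were seen. Predicted genes, olfactory and vomeronasal receptors and genes on X or Y were left out of that ranking. Listed genes that were not measured were not analysed here. Alternatives left out each array or changed the normalization, weights, filter, variance model, threshold or covariates, and 4 were added after seeing the data (background, intron control or sex as a covariate, and leaving out wild type array 5 with knockout array 2).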

Additional observations from a re-analysis of the deposited data

Results flagged for a closer look

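In wild type array 5 the Igf1 level of 10.57 stood apart from the other wild type arrays, which read 9.05 to 9.45. Its gap to the nearest array was 0.737 of the range of the group, above Dixon's critical value of 0.625 for 6 arrays. It was the 1 value of this kind among 20 groups examined (10 members in 2 genotypes), and chance gives about 1 in 20.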

How the results depend on the processing

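The count of called members was 1 with genotype alone and between 1 and 2 with each array left out, as Igfbp3 joined Igfbp1 without knockout array 3 and replaced it without wild type array 5. It was 2 with the replicate block, fitted on 5 pairs without wild type array 6 (Igfbp1 at -0.83 and Igfbp3 at 0.74), with the background mean or the intron control mean as a covariate (Igfbp1 and Igfbp3), with the hepatocyte mean (Igf1 at 1.03 and Igfbp3 at 1.47) and with the macrophage mean (Igf1 at -0.68 and Igfbp1 at -1.34). It was 0 by an adjusted p under 0.05. The numbers do not pair the arrays, so the replicate block is a fit by name only, and with it 250 clusters were called. Over all clusters the count was 228, ran from 171 to 314 with each array left out, and was 558 and 1786 with the hepatocyte and the macrophage mean as a covariate.

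The sign of Igf1 turned with array weights (-0.011) and the macrophage mean (-0.68), and its difference ran from -0.0225 to 0.49 with each array left out. With the macrophage mean Igf1r was -0.0725, Igfbp3 -0.25 and Igfbp7 -0.0347, and with the hepatocyte mean Igfbp2 was 0.0475, Igfbp4 0.27 and Vtn 0.0229. Igfbp4 was 0.0067 with the intron control mean and ran from -0.18 to 0.12 with each array left out. Igfbp7 was -0.0045 without wild type array 5 and knockout array 2 and ran from -0.0025 to 0.055 with each array left out. The cause of these turns was not tested. Igf2, Igfbp1, Igfbp5 and Igfbp6 kept their direction over the 24 alternatives. Igfbp6 was, however, only -0.0092 (SE 0.17) with the hepatocyte mean, and -0.40 (SE 0.16) with the macrophage mean. Averaging the clusters of a symbol changes nothing here, since each member has 1. The signal over background limits Igf2, Igfbp1, Igfbp2, Igfbp5 and Igfbp6, which were above the highest background set in 0 arrays.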
